A study of Mus musculus with 15 samples.

Results

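The 10 genes described here encode enzymes that turn cholesterol into conjugated bile acids: Cyp7a1, Cyp8b1, Cyp27a1, Cyp7b1, Hsd3b7, Akr1d1, Amacr, Acox2, Slc27a5 and Baat. They were found by the gene name printed for each probe in the scanner files, which gave 12 probes for the 10 genes, of 41174 probes and 27343 named genes on the array. Each of the 15 arrays was a 1-colour Agilent array hybridised with total RNA from mouse liver cells. Expandable hepatocytes, a liver cell population that grows in culture, came from 3 mice, named 129S1-No1, C57B6-No1 and 129S1-No2 in the labels, and were kept for 21 days in an expansion medium or in a differentiation medium. The labels name the cultured arrays eHep and mHep without spelling the names out; here eHep was taken as the expansion medium and mHep as the differentiation medium. There were 7 eHep and 7 mHep arrays, with 3 arrays of each kind from 129S1-No1, 3 from C57B6-No1 and 1 from 129S1-No2. A single array of primary hepatocytes, isolated by collagenase perfusion from C57B6 mice and not cultured in either medium, had no replicate. No genetic change, drug or age is named for any group. The labels do not say whether arrays of one mouse were separate cultures, so the mouse was the replicate, and the array titled mHep3 was placed by its title because its source label reads as an eHep of the same mouse.

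Bile acids are the main route by which the liver disposes of cholesterol, and their synthesis is a hallmark of the mature hepatocyte. In the classical route Cyp7a1 opens the sterol ring chemistry and sets the rate, and Cyp8b1 steers the product towards cholic acid. In the alternative route Cyp27a1 and Cyp7b1 hydroxylate the side chain and then the ring. Both routes share Hsd3b7 and Akr1d1 for the rings, Amacr and Acox2 for shortening the side chain in peroxisomes, and Slc27a5 and Baat for joining the acid to coenzyme A and then to taurine or glycine.

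Levels are given as the log2 signal of a probe minus the 75th percentile of its array, so that 0 is the 75th percentile and levels of different probes cannot be ranked against each other. A reading was counted as measured where the scanner software called it well above background, which held for 48.8% to 61.9% of probes on the cultured arrays and for 36.3% on the primary array. The primary array had 7 of 7 hepatocyte markers above background, with a summed signal of 7065 times the 75th percentile, against 149 to 984 in mHep and 4.23 to 26.9 in eHep. It also had 5 of 8 macrophage markers above background, without Cd68, Vsig4 and Timd4 (summed signal 14.2, against 0.188 to 2.89 in eHep and 0.325 to 1.01 in mHep) and 5 of 8 endothelial markers, without Pecam1, Lyve1 and Tek (16.4, against 0.185 to 0.717 and 0.195 to 0.658). Of 8 stellate markers, 1 (Acta2) was above background in the primary array, and they summed to 13.7 there, 15.3 to 32.5 in eHep and 13.8 to 28.9 in mHep. Of the bile duct markers, 3 of 8 were above background in the primary array, without Krt19, Krt7, Epcam, Cftr and Sctr. The 8 summed to 13.4 there against 268 to 618 in eHep and 149 to 850 in mHep. The part of these other cell types in the results below was not tested, and fewer hepatocytes cannot be told apart from less RNA per cell in such bulk samples.

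The probes of Cyp7a1 and Acox2 are shown because their targets span an intron, so that they match spliced RNA, and because Cyp7a1 was dark with this probe in both media while Acox2 was measured on every array. The Cyp7a1 probe lies on the reverse strand at chr4:6195632-6196238 and the Acox2 probe on the reverse strand at chr14:9058288-9062677 (mm9, per the file headers).
Cyp7a1 probe: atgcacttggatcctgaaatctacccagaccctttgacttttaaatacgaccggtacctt
Acox2 probe: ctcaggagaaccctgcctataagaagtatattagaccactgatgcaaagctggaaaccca

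RefSeq promoters (GRCm38.p6) were matched by symbol for 5 of the 10 genes: Cyp8b1, Cyp27a1, Hsd3b7, Akr1d1 and Acox2. The 250 bases before the start of 3 of them are shown, 1 for a gene that was above background on few cultured arrays (Cyp8b1) and 2 for genes measured on every array (Cyp27a1 and Hsd3b7). Capitals mark matches, on either strand, to 5 motifs that do not overlap here: CAAAGTCCA (an HNF4A-type site), the TATA box TATAAA, the nuclear receptor half-site AGGTCA, the CCAAT box and the SP1-type site GGGCGG.
Cyp8b1, chr9:121916306-121916555, reverse strand: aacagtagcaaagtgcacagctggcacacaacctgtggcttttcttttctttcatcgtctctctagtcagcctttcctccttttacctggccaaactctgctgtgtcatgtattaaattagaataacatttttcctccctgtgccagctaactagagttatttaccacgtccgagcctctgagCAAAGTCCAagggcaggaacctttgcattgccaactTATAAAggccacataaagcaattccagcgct
Cyp27a1, chr1:74713285-74713534, forward strand: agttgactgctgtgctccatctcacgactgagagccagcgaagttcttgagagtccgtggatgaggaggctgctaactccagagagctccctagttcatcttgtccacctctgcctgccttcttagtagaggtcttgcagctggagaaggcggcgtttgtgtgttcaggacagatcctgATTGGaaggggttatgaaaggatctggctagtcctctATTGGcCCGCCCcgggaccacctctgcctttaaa
Hsd3b7, chr7:127800359-127800608, forward strand: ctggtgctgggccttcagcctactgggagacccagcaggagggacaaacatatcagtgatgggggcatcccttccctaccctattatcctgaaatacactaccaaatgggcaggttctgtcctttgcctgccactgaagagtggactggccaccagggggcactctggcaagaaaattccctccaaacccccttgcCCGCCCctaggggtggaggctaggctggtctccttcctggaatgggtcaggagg
The Cyp8b1 window held CAAAGTCCA, starting 67 bases before the transcription start, and TATAAA, 31 bases before it. CAAAGTCCA occurred in 0.384% and TATAAA in 12.4% of the 32851 mouse promoter windows of that length. Neither was in the Cyp27a1 or Hsd3b7 window, which instead held CCAAT and GGGCGG on the other strand in Cyp27a1 and GGGCGG in Hsd3b7. CCAAT occurred in 33.8% and GGGCGG in 32.7% of all windows, and AGGTCA, in 14% of them, was in none of the 3. These are letter matches, and no binding was measured.

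The enzymes that open and steer the classical route were dark or near background in culture. Cyp7a1 was not well above background on any of the 14 cultured arrays, with levels from -7.69 to -5.59 (median -6.25) in eHep and from -6.97 to -4.97 (median -5.97) in mHep, and 1.59 in the primary array. Its second probe was likewise dark on all 7 eHep arrays and was above background on 2 of 7 mHep arrays, both from 129S1-No1. Against the primary array, its signal was at least 86.7-fold lower in eHep and at least 91.3-fold lower in mHep (log2 differences of -8.25 ± 0.78 and -7.55 ± 0.78 SE, limma adjusted p = 0.00235 and 0.00347). For such bounds, each reading under the lowest signal well above background on its array was raised to that signal, and dark readings above it were kept.

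Cyp8b1 stayed near the background in both media. It was above background on 2 of 7 eHep arrays (levels -7.93 to -3.58, median -5.91) and on 3 of 7 mHep arrays (-7.39 to -3.67, median -4.80), the latter being the 3 arrays of 129S1-No1, and stood at 5.04 in the primary array. All cultured arrays were thus far below the primary array. With dark readings raised to the limit of their array, the log2 differences from it were -9.74 in eHep and -9.63 in mHep, and the readings as they stand gave -11.23 ± 1.48 and -10.76 ± 1.48 (limma adjusted p = 0.00555 and 0.00771).

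**Figure D1:**
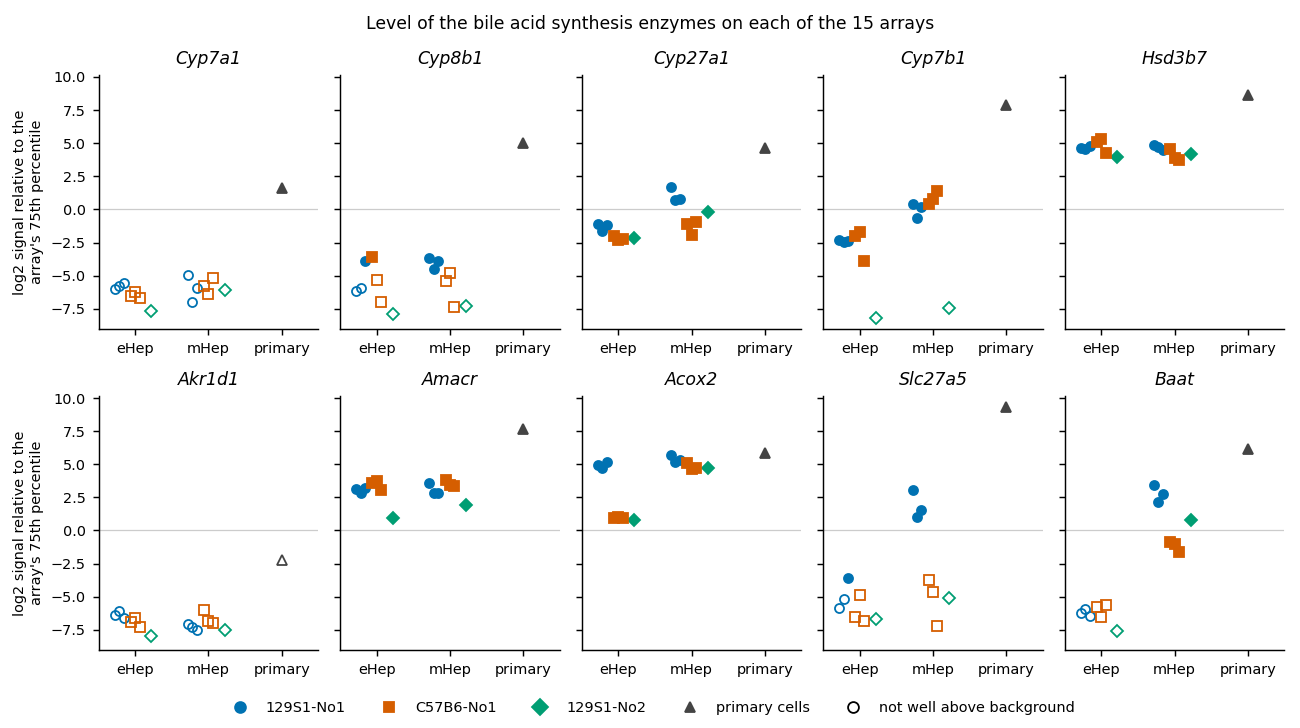
Level of each of the 10 genes (log2 signal minus the array's 75th percentile, y axis) on every eHep, mHep and primary array (x axis), with colour and shape for the mouse and open symbols for readings not well above background. The single primary array lies above all 14 cultured arrays for the 9 genes measured on it, Akr1d1 is dark throughout and has no order, and Baat has only open symbols in eHep and only filled ones in mHep.

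Cyp27a1, the mitochondrial sterol hydroxylase of the alternative route, was measured on all 15 arrays. Its level ran from -2.34 to -1.13 (median -1.98) in eHep and from -1.94 to 1.67 (median -0.21) in mHep, with 4.64 in the primary array. In mHep the 3 arrays of 129S1-No1 (0.72 to 1.67) lay above 129S1-No2 (-0.21) and above C57B6-No1 (-1.94 to -0.97), 2 of whose 3 mHep arrays fell within the eHep range. The difference between the media was 2.34 in mouse 129S1-No1, 0.82 in mouse C57B6-No1 and 1.97 in the other 129S1 mouse, a mean of 1.71 ± 0.45 (SE, 95% interval 0.61 to 2.82) that did not pass over all genes (limma adjusted p = 0.151). Against the primary array it was 92.1-fold lower in eHep and 28.1-fold lower in mHep (limma adjusted p = 0.00725 and 0.0270).

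Cyp7b1, the oxysterol hydroxylase that acts after Cyp27a1, split the mice. It was above background in both media in 129S1-No1 (-2.47 to -2.29 in eHep, -0.63 to 0.41 in mHep) and in C57B6-No1 (-3.91 to -1.70 in eHep, 0.44 to 1.38 in mHep). In 129S1-No2 it was dark in both, at -8.18 and -7.46, while the primary array read 7.89. Within 129S1-No1 and within C57B6-No1 no eHep array reached the mHep range. Over the 3 mice the difference was 2.16 ± 0.58 and did not pass (limma adjusted p = 0.159). Without 129S1-No2 it was 2.89 and passed (limma adjusted p = 0.00399).

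Hsd3b7, the dehydrogenase that oxidises the hydroxylated ring, was measured on all arrays and did not pass between the media. Its level was 3.99 to 5.30 (median 4.63) in eHep, 3.76 to 4.83 (median 4.50) in mHep and 8.63 in the primary array. The ranges of the media overlapped and the 95% interval of mHep minus eHep was -1.20 to 0.79 around -0.21 (limma adjusted p = 0.866). Both media were below the primary array, eHep by 17.3-fold and mHep by 20.0-fold (limma adjusted p = 0.00725 and 0.00797).

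Akr1d1, the reductase that bends the ring system, was not well above background on any of the 15 arrays, the primary one included. Its readings were -7.95 to -6.08 in eHep, -7.54 to -6.02 in mHep and -2.23 in the primary array. The lowest signal counted as above background was -2.12 on the primary array and -5.92 to -3.73 on the cultured ones, so no fold could be given for this gene.

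Amacr, the racemase that prepares the side chain, resembled Hsd3b7 in that the media overlapped. Its level was 0.97 to 3.73 (median 3.15) in eHep, 1.96 to 3.78 (median 3.36) in mHep and 7.68 in the primary array. In each medium the array of 129S1-No2 was the lowest. The difference between media was 0.37 ± 0.41 (95% interval -0.63 to 1.37, limma adjusted p = 0.747), and the cultures were 36.4-fold (eHep) and 28.2-fold (mHep) below the primary array (limma adjusted p = 0.0244 and 0.0404).

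Acox2, the peroxisomal oxidase of the branched side chain, had the smallest difference of the 9 tested members between mHep and the primary array. In eHep it stood at 4.98, 4.75 and 5.15 on the arrays of 129S1-No1, at 0.93, 0.98 and 0.96 on those of C57B6-No1 and at 0.79 in 129S1-No2. In mHep it stood at 5.67, 5.20 and 5.34 in 129S1-No1, at 5.11, 4.66 and 4.70 in C57B6-No1 and at 4.69 in 129S1-No2, against 5.88 in the primary array. The eHep arrays therefore fell into a high set from 1 mouse and a low set from the other 2 mice, whereas the mHep arrays of all 3 mice lay within 4.66 to 5.67. The ratio of mHep to eHep was 14.6-fold in C57B6-No1 and 14.9-fold in 129S1-No2 but 1.36-fold in 129S1-No1. With mice so unlike, the mean of 2.74 ± 0.76 did not pass (limma adjusted p = 0.167); without 129S1-No1 it was 3.88 and passed (limma adjusted p = 4.15e-04). The mHep level was 1.88-fold below the primary array, which did not pass (log2 difference -0.91 ± 1.58, 95% interval -4.68 to 2.86, limma adjusted p = 0.747), and its direction turned under quantile normalization (0.47).

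Slc27a5, the ligase that activates bile acids with coenzyme A, was above background in mHep in 1 of the 3 mice. It was above background on 1 of 7 eHep arrays (-6.82 to -3.57, median -5.89). In mHep the 3 arrays of 129S1-No1 read 3.06, 1.05 and 1.56, whereas those of C57B6-No1 (-3.74, -4.65 and -7.20) and 129S1-No2 (-5.07) were not above background. The primary array read 9.31. The mHep mean of 129S1-No1 was 171-fold below the primary array, that of C57B6-No1 at least 14554-fold and that of 129S1-No2 at least 21373-fold. Over the mice, with dark readings raised to the limit, the log2 differences from the primary array were -14.08 in eHep and -11.88 in mHep, and the readings as they stand gave -15.20 ± 2.67 and -12.10 ± 2.67 (limma adjusted p = 0.0133 and 0.0373).

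Baat, the transferase that joins the activated acid to taurine or glycine, was the only member that passed between the media. It was dark on all 7 eHep arrays (-7.55 to -5.66, median -6.26) and above background on all 7 mHep arrays (-1.63 to 3.45, median 0.77), with 6.17 in the primary array. No eHep reading came near the lowest mHep reading, and within mHep the mice were apart: 3.45, 2.11 and 2.72 in 129S1-No1, 0.77 in 129S1-No2 and -0.84, -0.99 and -1.63 in C57B6-No1. The rise was at least 50.1-fold (measured log2 difference 7.39 ± 0.83, 95% interval 5.36 to 9.42, higher in 3 of 3 mice, limma adjusted p = 0.0185). By mouse it was at least 110-fold in 129S1-No1 and 103-fold in 129S1-No2, and at least 3.46 on the log2 scale in C57B6-No1. In eHep Baat was at least 2083-fold below the primary array (limma adjusted p = 0.00356). The second Baat probe was dark on all 7 eHep arrays and above background on 5 of 7 mHep arrays, with 1 of 3 in C57B6-No1. It moved the same way, by 5.73 in 129S1-No1, 5.08 in 129S1-No2 and 2.09 in C57B6-No1, the last mostly between dark readings. Within the earlier of the 2 scan sessions the difference was 6.18, within the later 7.12, with slide as a block over the 14 arrays 6.46, with dark readings raised to the limit 5.65, and with normexp background correction 3.73. The call was lost with quantile normalization (limma adjusted p = 0.0668), with scaling to probes detected on all arrays (0.0623), in the authors' deposited value table (0.0664) and without the mouse as a block (0.111). Being dark in eHep, Baat entered the test through mHep alone, and a filter that asks for signal in both media leaves it out.

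Taking the 10 enzymes together for mHep against eHep, 6 could be tested, since the test was limited to genes that every array of 2 or more mice showed above background in one medium. Cyp7a1, Cyp8b1, Akr1d1 and Slc27a5 did not meet this. Of the 6, Baat was higher and none was lower, where 1.38% of the 14597 genes tested were higher and 0.452% lower. The median difference of the 6 was 1.94 against -0.095 for all genes tested, with 5 of 6 positive. A member that passed the filter through mHep alone, as Baat did, had to be brighter there, so this count and median say little about the 10. Of the 4 members above background on all cultured arrays, none passed. With the test limited to such genes, 93 of 11557 were higher and 56 lower.

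**Figure D2:**
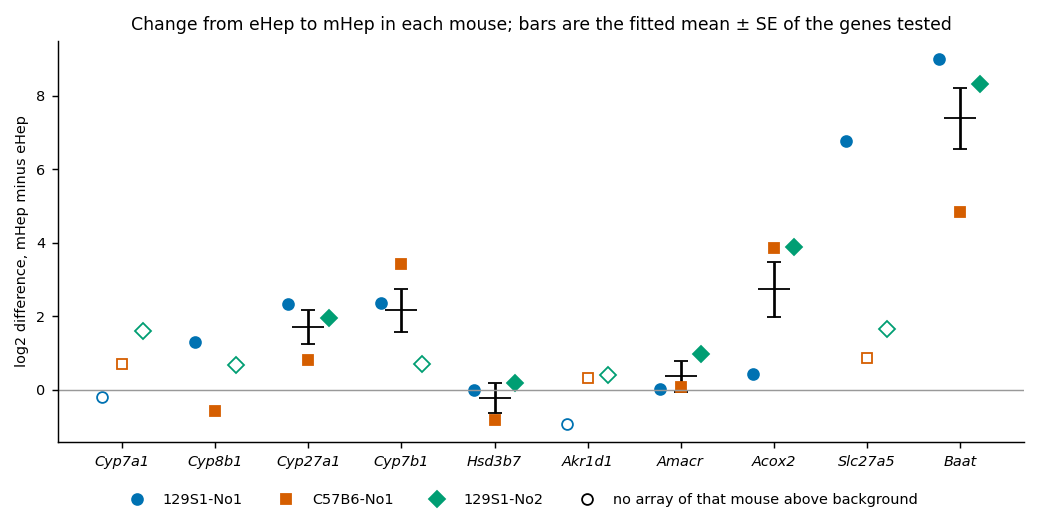
Log2 difference mHep minus eHep (y axis) for each gene (x axis) in each mouse, with the fitted mean ± SE over the 3 mice where the gene was tested; open symbols are mice in which no array of either medium was above background. Baat is far above 0 in all 3 mice, Acox2 in 2 of them, and Slc27a5 in 129S1-No1.

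Against the primary array 9 of the 10 genes were tested, with the single primary array assumed to vary like the cultured means. In eHep 7 of 9 were lower, beside 9.39% of the 15168 genes tested. In mHep 6 of 9 were lower, beside 5.97%. Cyp7a1, Cyp8b1 and Slc27a5 were dark on most arrays of both media and Baat on all of eHep, so these genes had to come out lower and their calls add nothing. Among the members above background on all arrays compared, 3 of 4 passed in eHep and 3 of 5 in mHep. These were Cyp27a1, Hsd3b7 and Amacr in each medium. With the test limited to such genes, 786 of 9475 were called lower in eHep and 426 of 9747 in mHep. All 9 differences were negative in both media, with a median of -8.25 in eHep and -5.38 in mHep against -0.19 and -0.34 over all genes tested. The eHep median is the value of Cyp7a1 and the mHep median that of Baat. Genes dark in culture could only be lower, so these signs and medians say little about the 9. The comparisons share the primary array, so they are not independent of each other.

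The exceptions were Cyp7b1 and Acox2 in both media and Baat in mHep. Cyp7b1 had the largest spread (-12.26 ± 3.59 in eHep, -10.10 ± 3.59 in mHep, limma adjusted p = 0.0670 and 0.130), and Acox2 in eHep was -3.64 ± 1.58 (0.173). Baat in mHep was 41.6-fold below the primary array (-5.38 ± 1.43, limma adjusted p = 0.0635), from 10.6-fold in 129S1-No1 through 42.2-fold in 129S1-No2 to 160-fold in C57B6-No1. Some of these passed under other settings: Cyp7b1 in eHep with dark readings raised (limma adjusted p = 0.0235), Cyp7b1 without 129S1-No2 (0.00422 in eHep, 0.00633 in mHep), Acox2 in eHep without 129S1-No1 (0.00712), and Baat in mHep within the earlier scan (0.0259). For C57B6-No1 alone, the difference of Cyp7b1 was -10.44 in eHep and -7.02 in mHep. That of Acox2 in eHep was -4.92 and that of Baat in mHep -7.32. There the arrays of 1 mouse were the samples, so the spread between mice was not measured. For mHep, without C57B6-No1, 1 member, Cyp7a1, still passed. Of all genes, 186 of 14649 were then called lower, where 905 of 15168 were with all mice. Without that mouse the differences were -10.69 for Cyp8b1, -4.22 for Cyp27a1, -4.21 for Hsd3b7, -5.16 for Amacr and -10.90 for Slc27a5. Within the earlier scan, which holds the primary array, the mHep differences were -7.23 for Cyp7a1, -12.37 for Cyp8b1, -5.23 for Cyp27a1, -4.66 for Hsd3b7 and -5.02 for Amacr. The arrays of C57B6-No1 alone, the strain of the primary cells, gave -7.39, -10.91, -5.99, -4.55 and -4.14 for the same genes.

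**Figure D3:**
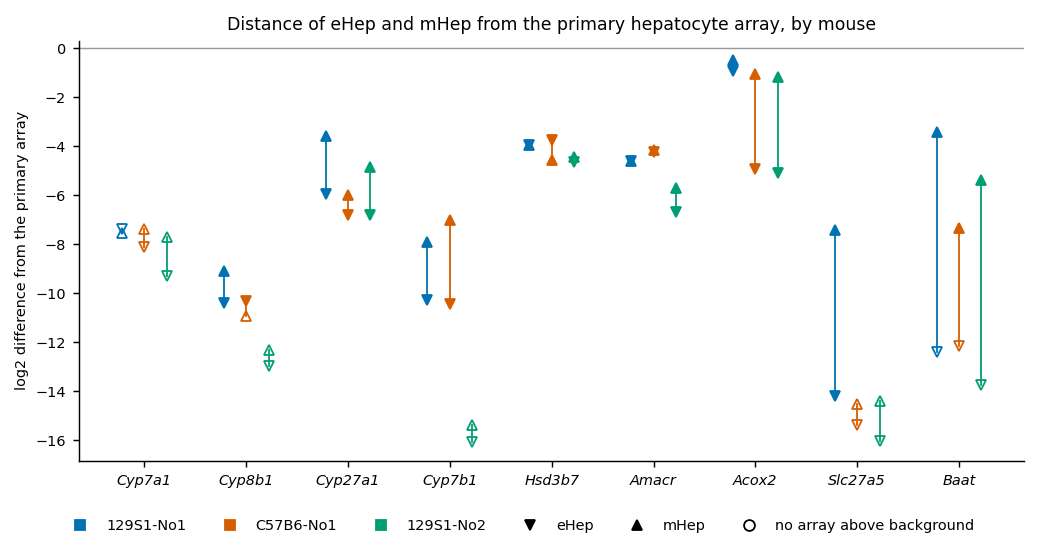
Log2 difference of eHep (down triangles) and mHep (up triangles) from the primary hepatocyte array (y axis, 0 is the primary level) for 9 of the 10 genes (x axis) in each mouse, with a line joining the media of a mouse and open symbols where no array was above background. Akr1d1 is left out because it was dark on the primary array. In mHep Acox2 lies within 1.19 of the primary level in every mouse, while Slc27a5 of C57B6-No1 and 129S1-No2 is dark and lies at least 14554-fold and 21373-fold below it.

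The 2 mice with 3 arrays in each medium, 129S1-No1 and C57B6-No1, were compared by the difference of their changes from eHep to mHep. The spread in that test was between arrays of a mouse, so it describes these 2 mice and not their strains, and p-values cover a spread that may be technical. Of 8 members tested, 1 changed more in C57B6-No1 (10.3% of the 15743 genes tested did) and 3 changed more in 129S1-No1 (6.29% did). Of these 3, Slc27a5 entered the test through the mHep arrays of 129S1-No1 alone. Its direction was thus fixed, and its call adds nothing to the count. Acox2 had the larger rise in C57B6-No1, by 3.42 ± 0.30 (limma adjusted p = 7.68e-05). Its changes were 0.44 in 129S1-No1 and 3.87 in C57B6-No1.

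Baat and Slc27a5, the 2 enzymes of conjugation, had the larger change in 129S1-No1. The difference of the changes was -4.16 ± 0.52 for Baat (8.998 in 129S1-No1 and 4.84 in C57B6-No1, limma adjusted p = 6.29e-04) and -5.89 ± 1.33 for Slc27a5 (limma adjusted p = 0.0140). Slc27a5 was dark on every array of C57B6-No1 in both media and entered this test through the mHep arrays of 129S1-No1, so it gives no size for the change in C57B6-No1, and with dark readings raised its difference was -5.58, and that of Baat, dark on all eHep arrays, -3.33. Cyp27a1 was -1.52 ± 0.46 (2.34 and 0.82, limma adjusted p = 0.0472), a call lost in 15 of 23 alternatives. In the later scan alone the differences were 3.48 for Acox2, -3.75 for Baat, -5.27 for Slc27a5 and -1.73 for Cyp27a1. With slide as a block they were 3.35, -5.67, -5.42 and -1.47, and Slc27a5 and Cyp27a1 no longer passed (limma adjusted p = 0.0951 and 0.318). The eHep and mHep arrays were on different slides in 129S1-No1 (3 and 4) and in 129S1-No2 (2 and 1). In C57B6-No1 only slide 2 held both media. Slide 3 held eHep arrays alone, and slides 1 and 5 held mHep arrays alone. Medium and slide thus cannot be fully told apart in the mHep against eHep comparisons. The summed signal of the hepatocyte markers in mHep averaged 803 in 129S1-No1 and 224 in C57B6-No1, and 23.9 and 9.49 in eHep. The changes of single markers, in the same order of mice, went both ways. As the readings stand, Alb (6.44 and 10.57), Apoa1 (7.39 and 10.35) and Ttr (6.40 and 7.13) rose more in C57B6-No1. Cps1 (10.31 and 2.89) rose more in 129S1-No1. Ahsg (10.85 and 10.89) and Hnf4a (1.11 and 1.08) rose alike, and Ass1 was lower in mHep in both mice (-1.44 and -0.43). Ttr and Cps1 were dark on all 7 eHep arrays, and Apoa1 was above background on 3 of 7 and Ahsg on 5 of 7. For these 4 the sizes and the order of the mice rest partly on dark readings. Bile duct markers summed to 174 in 129S1-No1 and 695 in C57B6-No1 in mHep, and to 573 and 412 in eHep. The part of these markers in the difference was not tested.

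Within 129S1-No1, 4 of 8 members rose from eHep to mHep (Cyp27a1, Cyp7b1, Slc27a5 and Baat), beside 17.3% of genes. Within C57B6-No1, 3 of 8 rose (Cyp7b1, Acox2 and Baat), beside 11.8%. Baat was dark on all eHep arrays of both mice, and Slc27a5 was above background on 1 of 3 eHep arrays of 129S1-No1. Both entered this test through mHep alone and had to come out higher there, so their calls add nothing to these counts. Cyp7b1 rose in both mice, by 2.36 ± 0.52 and 3.42 ± 0.52 (limma adjusted p = 0.00478 and 8.09e-04), and the difference of these changes, 1.06 ± 0.73, did not pass (limma adjusted p = 0.331), whereas with slide as a block it was 3.26 and passed (limma adjusted p = 0.0271). Hsd3b7 and Amacr did not pass in either mouse, with changes of 0.011 and -0.81 for Hsd3b7 and 0.023 and 0.089 for Amacr.

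Other genes of the pathway were read from lists made with earlier results of these data known, beside 1.38% of all genes tested that were higher, 0.452% lower and a median of -0.095. Of the other enzymes, 1 of 11 tested rose from eHep to mHep and none fell (median difference 0.56): Cyp2c70, which makes the muricholic acids typical of mice, by 5.21 ± 0.56 (limma adjusted p = 0.0178). It was above background on all arrays, with mean levels of -2.07 in eHep, 3.13 in mHep and 9.08 in the primary array. Slc27a2, also among the 11, was dark on all 7 eHep arrays and entered the test through mHep alone. Of the receptors and regulators, 3 of 12 rose and none fell (median 1.43): Nr1h4, the bile acid receptor, by 3.18 ± 0.47, Nr5a2, a nuclear receptor that acts on bile acid genes, by 4.68 ± 0.65, and Ppara, a receptor for fatty acids, by 5.53 ± 0.65 (limma adjusted p = 0.0374, 0.0316 and 0.0202). Nr5a2 was above background on 4 of 7 eHep arrays and Ppara on 6 of 7, so their sizes rest partly on dark readings. With those raised to the limit, Nr5a2 rose 23.0-fold and Ppara 33.7-fold.

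Of the carriers, 3 of 9 rose and none fell (median 2.64), beside 1.38% and 0.452% of all genes tested. Slc51a, Slc51b and Slco1b2 were dark on all 7 eHep arrays and entered the test through mHep alone. They had to come out higher there, so this count and median say little about the carriers. Abcg5, the partner of Abcg8 in the sterol exporter, rose by 5.71 ± 0.73 and was above background on 4 of 7 eHep and 7 of 7 mHep arrays. Slc51b, a subunit of the basolateral bile acid exporter, was dark on all 7 eHep arrays and rose at least 19.3-fold (5.75 ± 0.92). Slc10a2, the apical sodium-dependent bile acid importer of bile duct and gut cells, rose by 2.64 ± 0.43 (limma adjusted p = 0.0275, 0.0454 and 0.0480 for the 3). Slc10a2, too, was above background on 4 of 7 eHep and 7 of 7 mHep arrays. Under quantile normalization, scaling to detected probes, the value table and the strict filter, the calls came to 0 carriers, 1 receptor or regulator and 1 other enzyme, and without the mouse as a block to 0 in each list. The factor Hnf4a, whose kind of site the Cyp8b1 window holds, is named outside the list rule: it was measured on all arrays, at 1.17 in eHep, 2.54 in mHep and 4.55 in the primary array, and its difference of 1.37 ± 0.40 did not pass (limma adjusted p = 0.191).

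**Figure D4:**
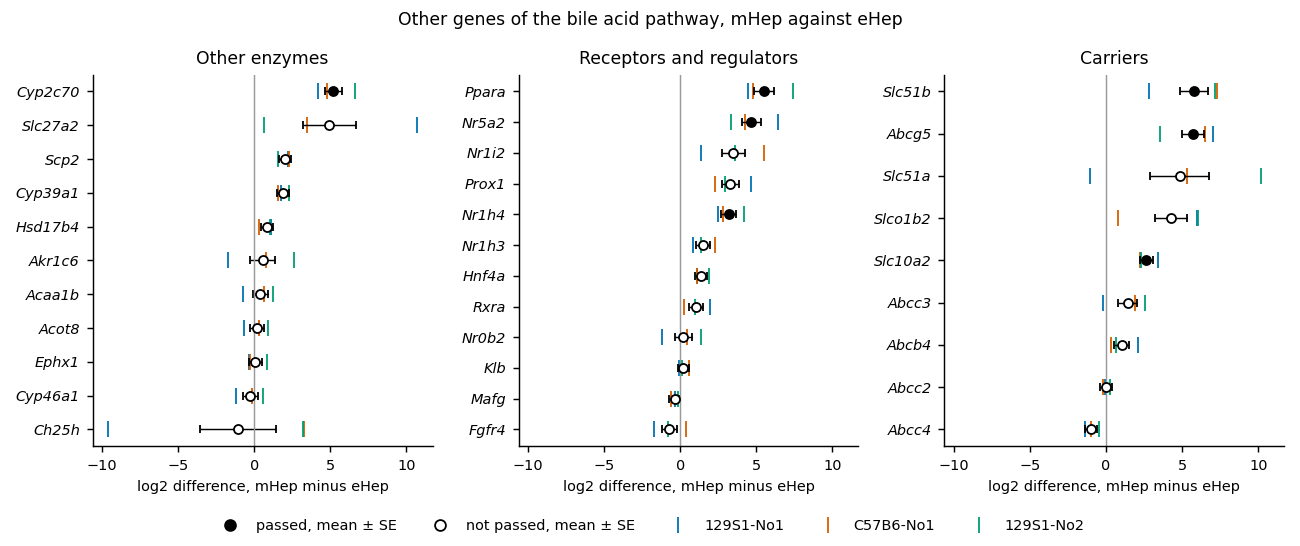
Log2 difference mHep minus eHep (x axis) of the other enzymes, the receptors and regulators, and the carriers (y axis) that could be tested, as the fitted mean ± SE over 3 mice, with coloured ticks for the single mice. Filled points passed (limma adjusted p under 0.05), 1 of 11, 3 of 12 and 3 of 9, and all of them lie to the right of 0 in every mouse.

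The genes most like 4 of the enzymes were sought by Pearson correlation of levels over the 15 arrays, which share mice, scans and slides, and the values are given as a description. For Baat these were Fetub (r = 0.989), Wfdc21 (0.988) and Vtn (0.982), with r from 0.977 to 0.985 over the 14 cultured arrays. For Cyp27a1 they were Acsl1 (0.983), Ppp2r5a (0.973) and Slc35d1 (0.968), with 0.922 to 0.960 in culture. For Cyp7b1 they were Ang4 (0.956), Angpt4 (0.954) and Ang (0.950), of which Ang and Ang4 are near copies that probes may not separate, with 0.908 to 0.919 in culture. For Cyp7a1, by the probe that was dark in culture, Qdpr (0.966), Aldh4a1 (0.965) and Aco1 (0.961) fell to between 0.645 and 0.757 without the primary array.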

How the data were processed

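Per the labels, total RNA was labelled with Cy3. Per the file headers, the authors' scanner output came from Agilent Feature Extraction 10.7.1.1 and 10.7.3.1, and the deposited signals used here are background-subtracted fluorescence intensity values. The series' value table holds log2 values deposited by the authors, which correlated with the array signals at 0.972 to 0.9999; how they were scaled is not given in the sources used here. Spots of a probe were averaged, control spots left out, and each array's log2 signals taken relative to its own 75th percentile. The probe with the highest mean stood for a gene. Probes were named through accession (27668), symbol (5589) or older symbol (471), and otherwise kept the file's name (7446). Arrays were averaged per mouse and medium. limma 3.58.1 in R 4.3.3 fitted mouse as a block for mHep against eHep, group alone against the primary array (adjusted p under 0.05 and a log2 difference of at least 1), and mouse by medium over 12 arrays. Same-mouse samples deviated together (r = 0.397, 0.563 and 0.539, different mice at most 0.0114), and the labels name the same mice in both media. P-values were adjusted by Benjamini-Hochberg over all genes tested. The code was tested on simulated data. Members, lists and tests were chosen with earlier results of these data known, and the genes named from the other lists are those that passed, plus a few said to be named outside this rule. Raising dark readings to the background limit against the primary array and between mice was added after seeing the data. Alternatives covered background correction, scaling, the value table, filters, probe choice, blocks, scan, slide and left-out mice or arrays. Of the lists, Serpina1a and Sult2a1 matched no name. Arrays have no read depth; their number limits the precision.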

Additional observations from a re-analysis of the deposited data

Results flagged for a closer look

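In eHep and in mHep, the Cyp7b1 level of 129S1-No2 lay far from the other 6 arrays of its group, at -8.18 in eHep 3 and -7.46 in mHep 3. The Amacr level of eHep 3, at 0.97, was likewise apart from the other eHep arrays. Such gaps occur in about 1 in 20 groups of independent samples by chance, a rate that does not apply as such here, since the other 6 arrays of each group came from 2 mice and these are the single arrays of the third.

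The change from eHep to mHep differed between C57B6-No1 and 129S1-No1, by the test of the difference itself, for Acox2 (3.42), Baat (-4.16), Slc27a5 (-5.89) and Cyp27a1 (-1.52), each given as C57B6-No1 minus 129S1-No1. Slc27a5 was dark on every array of C57B6-No1 and entered the test through the mHep arrays of 129S1-No1 alone, so its direction was fixed.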

How the results depend on the processing

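For mHep against eHep, 1 of the enzymes and 7 genes of the 3 pathway lists passed. The counts of enzymes and list genes were 0 and 2 under quantile normalization, scaling to probes detected on all arrays, the deposited value table and a strict filter, 0 and 0 with no replicate block, and 1 and 4 with normexp correction. They were 2 and 11 without a filter, 2 and 12 with pairs of mouse and scan as the block, 2 and 16 in the earlier scan alone, 2 and 11 in the later alone, 4 and 22 over 14 arrays as samples, and 4 and 14 with slide as a block. Leaving out a mouse gave 1 to 2 enzymes and 10 to 15 list genes. Of all genes, 267 of 14597 passed in the main test, 110 under quantile normalization and in the value table, and 105 under scaling to detected probes. The strict filter gave 149 of 11557, no block 2, normexp 176 and no filter 658 of 27343. Pairs of mouse and scan gave 930, the earlier scan 1750, the later 654, 14 arrays 5024 and slide 3006. Leaving out a mouse gave 526 to 1191 genes. The cause was not tested, except that the strict filter drops genes dark in one group by its construction. Against the primary array the strict filter left 3 enzymes in eHep and 3 in mHep, and leaving out a mouse gave 5 to 8 and 1 to 6. Of all genes, 786 of 9475 and 426 of 9747 were called lower with the strict filter. Leaving out a mouse gave 500 to 1763 and 186 to 1133 genes called lower. For the difference of changes the strict filter left 2. Signs turned for Hsd3b7 without C57B6-No1 (0.098, with -0.401 as the lowest when a mouse was left out), Amacr within the later scan (-0.00072), and Acox2 in mHep against the primary array under quantile normalization (0.467) and in the value table (0.466). The small Amacr difference of changes turned under quantile normalization (-0.126), median scaling (-0.017), scaling to detected probes (-0.206), the value table (-0.126), the later scan (-0.047) and, among left-out arrays, ranged from -0.134 to 0.307. No other enzyme turned under the alternatives run. Of all genes, 201 higher and 66 lower became 96 and 9 under scaling to detected probes and 354 and 167 under median scaling; for eHep against primary, 851 and 1425 became 1700 and 1297 under quantile normalization, with the median of all genes moving from -0.19 to 0.32, and for mHep 608 and 905 became 1305 and 819 (-0.34 to 0.23). For the difference of changes, 1623 and 990 became 431 and 179 with normexp correction. The later scan holds no primary array, so no value was possible there. Signals near background, and 1 primary array, limit Cyp7a1, Cyp8b1, Akr1d1 and Slc27a5.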

Other observations

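Ch25h, which makes an oxysterol that Cyp7b1 can use, is named after its values were seen. Its log2 difference mHep minus eHep was -9.60 in mouse 129S1-No1, 3.25 in mouse C57B6-No1 and 3.17 in the other 129S1 mouse. It was above background on 5 of 7 eHep and 7 of 7 mHep arrays, and its mean difference was -1.06 ± 2.49 (limma adjusted p = 0.889). The difference between the mice was not tested for this gene.

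Cyp39a1, a hydroxylase for another oxysterol, is also named after its values were seen. Its mean level was 1.62 in eHep and 3.49 in mHep against -0.13 in the primary array, so the cultures lay above the primary array. On this scale none of the 9 members tested against that array did so. Acox2 in mHep did under quantile normalization (0.467) and in the value table (0.466). The Cyp39a1 difference of 1.87 ± 0.39 between the media did not pass (limma adjusted p = 0.0858).

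Slc27a2, a ligase of the same family as Slc27a5, is likewise named after its values were seen. It was dark on all 7 eHep arrays and above background on 6 of 7 mHep arrays, with a mean signal at least 7.59-fold higher in mHep, and the difference did not pass (limma adjusted p = 0.273).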
